A study of Mus musculus with 20 samples.

Results

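The RNA levels of 10 genes of the endoplasmic reticulum (ER) folding machinery and of the unfolded protein response were followed across mouse ovarian tumours: Hspa5, Hsp90b1, Pdia4, Pdia6, Dnajb9, Sdf2l1, Creld2, Manf, Herpud1 and Ddit3. The rule that defines them is a list of symbols and uses no measured value, although the list was drawn up with earlier results of these data known. They were 10 of the 55406 genes in the count table and of the 22417 symbols in the authors' table of log2 RPKM. All 10 passed the filter on low counts, and the lowest count of any of them in a library was 358, for Sdf2l1.

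The tumours grew from ID8 cells, a mouse ovarian epithelial cancer line, made to lack Trp53 and Brca1 and to express luciferase, and injected into the peritoneal cavity of female C57/BL6 mice. Every tumour, controls included, carried both deletions, so no group of another genotype serves as a comparison. The groups were untreated controls (3 mice), the PARP inhibitor olaparib given by mouth at 40 mg/kg each day (PARPi, 3 mice), 100 µg of an antibody to CTLA-4 with 200 µg of an antibody to PD-L1 (immune checkpoint blockade, ICB, 3 mice), PARPi+ICB (3 mice), PARPi with 20 µg of an antibody to VEGFA (PARPi+aVEGF, 4 mice) and all agents together (PARPi+ICB+aVEGF, 4 mice). No group received the VEGFA antibody without olaparib. The labels give neither the age of the mice nor the length of treatment, nor do they state that replicates are separate mice beyond their titles, so p-values measure the spread between these samples.

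Secreted and membrane proteins fold in the ER. When unfolded proteins build up there, the sensors IRE1, PERK and ATF6 switch on the unfolded protein response, in which the transcription factors XBP1, ATF4 and ATF6 raise the genes for chaperones and for degradation of misfolded proteins. Cells that secrete much protein, such as plasma cells and pancreatic acinar cells, hold high levels of this machinery without injury. ATF6, bound together with NF-Y, recognises a promoter element called the ER stress response element (ERSE), which reads CCAAT, any 9 bases and CCACG. A shorter variant, ERSE-II, reads ATTGG, any 1 base and CCACG.

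The promoters of 6 of the genes are shown so that those with ERSE (Hspa5, Hsp90b1 and Creld2), with ERSE-II (Herpud1) and with the CCACG core alone (Dnajb9 and Sdf2l1) can be set beside their values in these tumours. Each sequence is the 250 bases before the RefSeq transcription start on GRCm38.p6, printed 5′ to 3′ on the strand of the gene. Capitals mark the fixed letters of ERSE and ERSE-II and every CCACG core, also where they lie on the opposite strand and read as ATTGG and CGTGG. The core lies within both longer motifs, so the 3 counts overlap.
Hspa5 (chr2:34771840-34772089, plus strand): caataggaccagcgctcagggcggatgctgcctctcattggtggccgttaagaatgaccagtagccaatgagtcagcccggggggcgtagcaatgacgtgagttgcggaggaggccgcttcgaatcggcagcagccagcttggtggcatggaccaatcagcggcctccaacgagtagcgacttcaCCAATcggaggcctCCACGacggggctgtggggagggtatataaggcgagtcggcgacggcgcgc
Hsp90b1 (chr10:86705445-86705694, minus strand): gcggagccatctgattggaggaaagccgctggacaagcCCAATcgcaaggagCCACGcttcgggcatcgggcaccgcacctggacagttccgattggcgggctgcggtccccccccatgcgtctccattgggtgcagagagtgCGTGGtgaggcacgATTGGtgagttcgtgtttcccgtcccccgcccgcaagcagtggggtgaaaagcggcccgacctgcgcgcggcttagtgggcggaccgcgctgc
Creld2 (chr15:88819396-88819645, plus strand): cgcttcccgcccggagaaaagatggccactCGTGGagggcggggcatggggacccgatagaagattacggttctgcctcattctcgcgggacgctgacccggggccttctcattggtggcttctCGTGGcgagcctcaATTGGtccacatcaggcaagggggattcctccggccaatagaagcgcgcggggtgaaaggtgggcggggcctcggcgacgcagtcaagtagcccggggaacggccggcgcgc
Herpud1 (chr8:94386179-94386428, plus strand): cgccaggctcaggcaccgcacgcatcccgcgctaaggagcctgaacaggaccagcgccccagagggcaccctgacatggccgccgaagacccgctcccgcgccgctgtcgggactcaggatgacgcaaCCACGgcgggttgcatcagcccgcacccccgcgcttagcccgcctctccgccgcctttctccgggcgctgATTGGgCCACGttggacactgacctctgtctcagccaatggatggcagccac
Dnajb9 (chr12:44210069-44210318, minus strand): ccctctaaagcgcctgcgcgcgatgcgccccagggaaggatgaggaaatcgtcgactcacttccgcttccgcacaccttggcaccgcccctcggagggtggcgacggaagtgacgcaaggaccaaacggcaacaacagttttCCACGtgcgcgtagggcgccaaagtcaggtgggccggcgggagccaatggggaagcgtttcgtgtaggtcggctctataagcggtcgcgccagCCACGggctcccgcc
Sdf2l1 (chr16:17132384-17132633, minus strand): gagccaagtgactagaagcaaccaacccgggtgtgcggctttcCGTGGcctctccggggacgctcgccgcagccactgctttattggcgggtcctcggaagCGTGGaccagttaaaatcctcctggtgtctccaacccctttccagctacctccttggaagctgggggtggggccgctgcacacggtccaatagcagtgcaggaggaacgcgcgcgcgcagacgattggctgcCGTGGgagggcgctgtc

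The promoter table held 9 of the 10 genes, and Manf was missing from it. In windows of 250 bases before to 50 bases after the start, ERSE was found on either strand in 4 of the 9 (Hspa5, Hsp90b1, Pdia6 and Creld2), against 39 of 32851 mouse promoters (0.119%). Hsp90b1 had 2 copies. The Hspa5 copy lay 65 to 47 bases before the start, that of Pdia6 98 to 80 bases before it, and that of Creld2 126 to 108 bases before it on the reverse strand. ERSE-II was found in Herpud1, 52 to 42 bases before the start, and in 12 promoters overall (0.0365%). The core CCACG occurred in 8 of the 9 and in 32.8% of all promoters. No CCACG was found in the Ddit3 window, and the single copy at Pdia4 lay after the start. These are matches of letters and were not tested as binding sites.

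Levels were compared between genes as CPM (counts scaled to the TMM-adjusted library size) per kilobase of annotated exon, averaged over the 20 libraries. Hsp90b1, the HSP90 chaperone of the ER (GRP94), had the highest level at 298 ± 45.0 (SD, n = 20), followed by Hspa5 (BiP, the ER HSP70 chaperone) at 229.6 ± 24.8. The disulphide isomerases Pdia4 and Pdia6 stood at 119 ± 11.8 and 73.1 ± 6.15. Creld2, Herpud1 and Manf had 46.5 ± 9.94, 40.2 ± 6.86 and 35.8 ± 5.90. Lowest were Dnajb9 at 23.5 ± 4.75, Ddit3 at 17.4 ± 1.60 and Sdf2l1 at 15.3 ± 2.79. The ranges over libraries did not overlap between Hspa5 and Pdia4, nor between Pdia4 and Pdia6. The order was less firm elsewhere, since Hsp90b1 exceeded Hspa5 in 19 of 20 libraries, Herpud1 exceeded Manf in 17 and Ddit3 exceeded Sdf2l1 in 13. All these comparisons rest on the annotated exon length as divisor. Manf has 3524 exon bases but a coding length of 653, whereas Creld2 has 1366 and 1050. The order with another length was not tested, and agreement between libraries does not bear on that choice. All further levels are the same CPM without division by exon length and compare 1 gene across tumours.

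**Figure D1:**
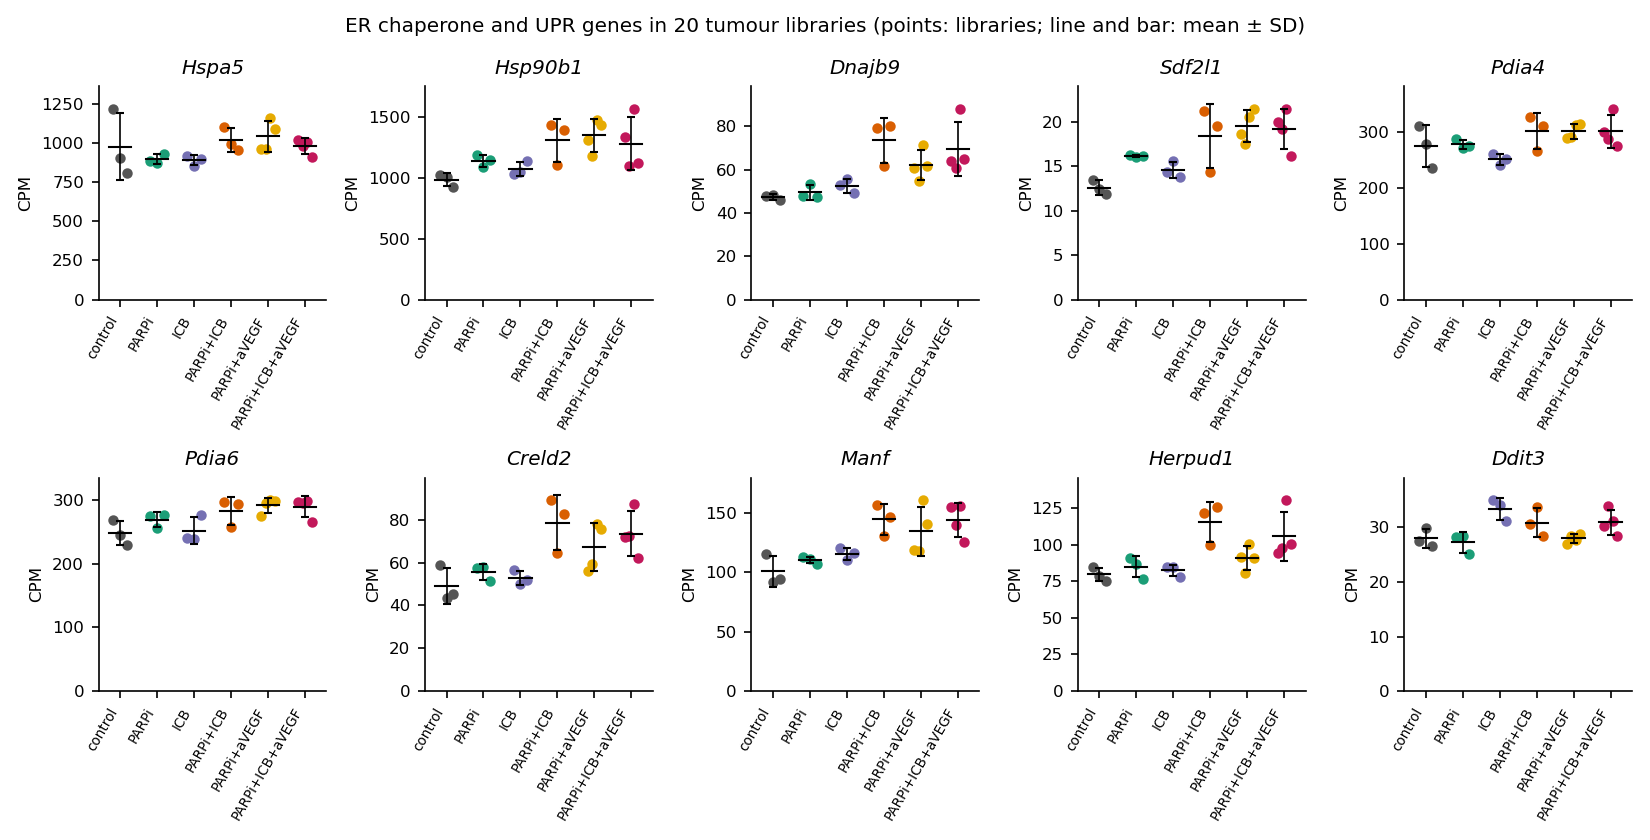
CPM of each of the 10 genes (y axis, linear from 0, own scale for each gene) in the 6 treatment groups (x axis), with a point for each library and the mean ± SD for each group. Dnajb9, Creld2, Manf, Sdf2l1 and Hsp90b1 sit higher in the 3 olaparib combinations than in controls, whereas Hspa5 and Ddit3 largely share 1 range.

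Most of the 10 genes were called higher in the 3 olaparib combinations, and none passed the test with olaparib or ICB alone. Changes are log2 differences from edgeR's quasi-likelihood test with Benjamini-Hochberg adjustment over all 18144 genes tested, and calls were made below an adjusted p of 0.05. With PARPi+ICB 6 of the 10 genes were called higher, against 9.58% of all genes higher and 16.1% in either direction. With PARPi+aVEGF 6 were called higher (9.99% of all genes, 17.8% in either direction), and with PARPi+ICB+aVEGF 7 (12.6% of all genes, 24.2% in either direction). The PARPi+aVEGF count rested on single controls: it was 2 without control replicate 2 and 1 without control replicate 3, and it was 3 without replicate 3 or 4 of that group. None was called with PARPi alone (0.0551% of all genes higher, 0.0661% in either direction) or with ICB alone (1.23% higher, 2.2% in either direction), and no member was called lower in any comparison. Every treated library stood above every control for 6 of the 10 genes with PARPi+ICB (17.5% of all genes), 5 with PARPi+aVEGF (14.2% of all genes), 6 with PARPi+ICB+aVEGF (14.9% of all genes), 4 with ICB (11.7% of all genes) and 2 with PARPi (11.2% of all genes). The 5 comparisons use the same 3 controls, so their values are set side by side and do not back each other. The median log2 change over the 10 genes was 0.10 with PARPi, 0.11 with ICB, 0.46 with PARPi+ICB, 0.31 with PARPi+aVEGF and 0.39 with PARPi+ICB+aVEGF, while the median of all genes tested lay between -0.02 and 0.01. In bulk tissue, a change in the share of a cell type and a change in RNA per cell cannot be told apart.

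**Figure D2:**
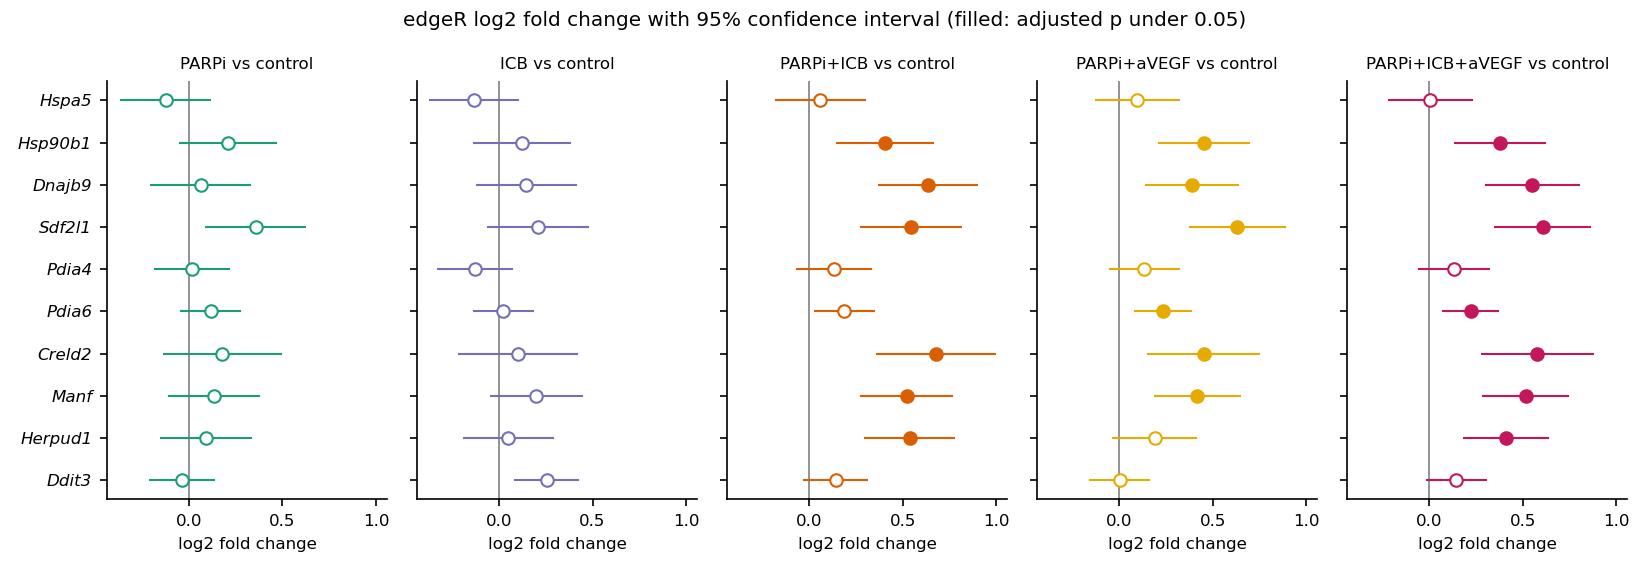
Log2 change (x axis) of each gene against untreated controls in the 5 treated groups, with 95% confidence intervals from the edgeR fit; filled points passed the test. Filled points appear in the 3 olaparib combinations alone, and Hspa5, Pdia4 and Ddit3 have none.

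Marker RNA of plasma cells, T cells, macrophages and fibroblasts rose in the same combinations, and in part with the single treatments. Ighm plus Igkc, the IgM heavy chain and kappa light chain constant regions, averaged 5646 CPM in controls, 15297 with PARPi, 19939 with ICB, 19742 with PARPi+aVEGF, 32804 with PARPi+ICB+aVEGF and 37326 with PARPi+ICB. Of 8 plasma cell markers, 8 were called higher in each combination, 7 with ICB and 1 with PARPi. Their summed level was 637 to 1001 CPM in controls, 2079 to 3785 with PARPi+ICB, 1693 to 2986 with PARPi+aVEGF and 1485 to 4717 with PARPi+ICB+aVEGF, and none was at 0 in any group. B cell markers went both ways. Of 8, 4 were called higher and 1 lower with PARPi+ICB, 2 higher with PARPi+aVEGF, 1 lower with ICB and none with PARPi. The B cell list had a mean log2 CPM of 1.82 in controls, 1.30 with ICB and 2.31 with PARPi. It had 2.46 with PARPi+ICB, 2.31 with PARPi+aVEGF and 2.50 with all agents. All 6 T cell markers were called higher in each combination, as were 5, 4 and 5 of 6 macrophage markers and 4, 4 and 5 of 6 fibroblast markers with PARPi+ICB, PARPi+aVEGF and all agents. Summed fibroblast markers had 2675 to 2961 CPM in controls and 3413 to 5045 CPM in the combinations, and summed macrophage markers 666 to 759 and 940.3 to 1416 CPM. In each combination 4 of 6 epithelial markers, present in every library as the ID8 label implies, were called lower. Rn7sk, Lars2 and Mir6236, taken as a guide to library quality, had a mean log2 CPM of 4.47 to 4.82 in controls, 2.95 to 3.53 with PARPi+ICB, 2.72 to 2.82 with PARPi+aVEGF, 2.96 to 4.63 with PARPi+ICB+aVEGF, 2.74 to 3.07 with ICB and 2.99 to 4.31 with PARPi. ICB alone also had low values of these RNAs. No member was called there, and a link between these RNAs and the calls was not tested there. Pancreatic acinar RNA was high in 4 libraries, namely ICB replicate 3, PARPi+aVEGF replicates 1 and 4, and PARPi+ICB+aVEGF replicate 2. Library totals were 26.9 to 34.7 M counts. The part of these shifts in the results was not tested, beyond the fits that carry them as covariates and the fit without the acinar libraries.

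Of the 2 large chaperones, Hsp90b1 was called higher in all 3 combinations and Hspa5 in none. Hspa5 (GRCm38 chr2:34771970-34777547, plus strand), whose protein binds unfolded chains and holds the stress sensors inactive, had 1217, 906 and 805 CPM in the 3 controls, the widest spread of any group. It had 1104, 995 and 953 CPM with PARPi+ICB, 959, 963, 1160.4 and 1088 with PARPi+aVEGF, and 1019.6, 983, 1005 and 907 with PARPi+ICB+aVEGF, while the PARPi and ICB libraries lay between 855 and 931. Every treated library thus fell within the range of the controls. The log2 change was 0.06 with PARPi+ICB (adjusted p = 0.770, 95% interval -0.18 to 0.30), 0.10 with PARPi+aVEGF (adjusted p = 0.578, -0.13 to 0.32) and 0.00 with the full combination (adjusted p = 0.983, -0.22 to 0.23). Without control replicate 1, the highest library of all, Hspa5 was called higher with PARPi+aVEGF at 0.28 (adjusted p = 0.0403).

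Hsp90b1 (chr10:86690209-86705509, minus strand), which folds a narrow set of clients that includes integrins and Toll-like receptors, had 1020.2, 1009 and 927 CPM in controls. With PARPi+ICB it had 1431, 1103 and 1388 CPM, with PARPi+aVEGF 1306, 1179, 1476 and 1434, and with PARPi+ICB+aVEGF 1337, 1099, 1566 and 1118. All 11 libraries of the combinations, and all 3 PARPi libraries (1188, 1089 and 1144), stood above the controls. Hsp90b1 rose by 0.41 ± 0.12 (SE) with PARPi+ICB (adjusted p = 0.0296), by 0.45 ± 0.12 with PARPi+aVEGF (adjusted p = 0.0119) and by 0.38 ± 0.11 with the full combination (adjusted p = 0.0238), and its change of 0.21 with PARPi did not pass (adjusted p = 0.541). These calls were fragile: the first was lost without any 1 of the 3 controls or without PARPi+ICB replicate 1 or 3, the second without control replicate 3, and the last without control replicate 2 or 3 or replicate 3 of its own group. Of the exon bases of Hsp90b1, 10.3% overlap a pseudogene on the opposite strand, 1810014B01Rik, and the strand setting of the counting is not given in the sources used here.

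Dnajb9 and Sdf2l1, partners of BiP, rose in all 3 combinations. Dnajb9 (ERdj4, chr12:44205559-44210326, minus strand), an XBP1 target whose protein brings BiP to the sensor IRE1 and to degradation substrates, had 48.0, 48.5 and 45.8 CPM in controls. It reached 79.1, 61.7 and 80.2 CPM with PARPi+ICB, 60.9, 54.8, 71.2 and 61.7 with PARPi+aVEGF, and 64.2, 60.7, 88.1 and 65.1 with PARPi+ICB+aVEGF. All 11 libraries exceeded the controls, which kept a narrow range. Dnajb9 rose by 0.64 ± 0.13 with PARPi+ICB (adjusted p = 0.00251), by 0.39 ± 0.12 with PARPi+aVEGF (adjusted p = 0.0297) and by 0.55 ± 0.12 with the full combination (adjusted p = 0.00314). The PARPi+aVEGF call was lost without any 1 of the controls, without replicate 3 or 4 of that group, and without the libraries that hold acinar RNA.

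Sdf2l1 (chr16:17130138-17132383, minus strand), a BiP partner that keeps unfolded proteins soluble, had 13.5, 12.5 and 11.8 CPM in controls. It had 16.3, 16.0 and 16.1 CPM with PARPi, 14.4, 15.5 and 13.7 with ICB, 21.2, 14.4 and 19.5 with PARPi+ICB, 18.6, 17.5, 20.6 and 21.4 with PARPi+aVEGF, and 20.0, 19.2, 21.4 and 16.1 with PARPi+ICB+aVEGF. Every treated library, single treatments included, stood above every control. It rose by 0.55 ± 0.13 with PARPi+ICB (adjusted p = 0.00732), by 0.63 ± 0.12 with PARPi+aVEGF (adjusted p = 0.00222) and by 0.61 ± 0.12 with the full combination (adjusted p = 0.00182). With PARPi alone the difference was 0.36 ± 0.13 and did not pass (adjusted p = 0.271). Each of the 3 calls was kept whichever single library was left out, although Sdf2l1 had the fewest counts of the 10 genes.

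The disulphide isomerases changed little. Pdia4 (ERp72, chr6:47796141-47813430, minus strand) had 311, 279 and 235 CPM in controls and 267 to 342 CPM across the 11 libraries of the combinations, so the groups overlapped. Its log2 difference was 0.13 in each combination (adjusted p = 0.363, 0.314 and 0.304 with PARPi+ICB, PARPi+aVEGF and all agents). Pdia6 (P5, chr12:17266545-17284770, plus strand), which also damps IRE1 and PERK signalling, had 269, 246 and 230.1 CPM in controls, 274, 295, 299 and 298 with PARPi+aVEGF, and 297, 296, 299 and 265 with PARPi+ICB+aVEGF. It rose by 0.23 ± 0.07 with PARPi+aVEGF (adjusted p = 0.0304) and by 0.22 ± 0.07 with the full combination (adjusted p = 0.0306), and stood at 0.19 with PARPi+ICB (adjusted p = 0.1005). Both calls were lost without control replicate 2 or 3, without replicate 2, 3 or 4 of PARPi+aVEGF for the first and without replicate 1, 2 or 3 of the full combination for the second. Without PARPi+ICB replicate 2, on the other hand, Pdia6 was called with PARPi+ICB at 0.26 (adjusted p = 0.0380).

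Creld2 and Manf, 2 small secreted proteins induced by ER stress, moved together. Creld2 (chr15:88819646-88826683, plus strand), which has disulphide isomerase activity, had 58.7, 43.7 and 45.2 CPM in controls. It had 89.0, 64.3 and 82.5 CPM with PARPi+ICB, 55.9, 59.5, 78.2 and 75.5 with PARPi+aVEGF, and 71.9, 72.5, 87.3 and 62.0 with PARPi+ICB+aVEGF. The groups overlapped only for PARPi+aVEGF, where 1 library lay under the highest control. Creld2 rose by 0.68 ± 0.15 with PARPi+ICB (adjusted p = 0.00541), by 0.45 ± 0.14 with PARPi+aVEGF (adjusted p = 0.0346) and by 0.58 ± 0.14 with the full combination (adjusted p = 0.00717). The PARPi+aVEGF call was lost without control replicate 2 or 3, without replicate 3 or 4 of that group, and without the acinar libraries.

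Manf (chr9:106838312-106891979, minus strand), a trophic factor that stays in the ER bound to BiP until stress releases it, had 116, 91.8 and 94.3 CPM in controls, 156, 130.1 and 146 with PARPi+ICB, 119, 117, 160.4 and 141 with PARPi+aVEGF, and 155, 139.6, 156 and 125 with PARPi+ICB+aVEGF. All 11 libraries lay above the controls, 2 of the PARPi+aVEGF libraries by a small margin. Manf rose by 0.52 ± 0.12 (adjusted p = 0.00516), 0.42 ± 0.11 (adjusted p = 0.0134) and 0.52 ± 0.11 (adjusted p = 0.00273) in the same order, and the PARPi+aVEGF call was lost without control replicate 2 or 3.

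Herpud1 (chr8:94386438-94395377, plus strand), a membrane protein that assembles the ER degradation complex, rose with both combinations that held ICB and did not pass with the one that lacked it. It had 84.7, 78.7 and 75.5 CPM in controls, 122, 100.0 and 126 with PARPi+ICB, 94.0, 98.1, 130.3 and 101 with PARPi+ICB+aVEGF, and 91.3, 80.4, 101 and 91.0 with PARPi+aVEGF. The libraries with PARPi+ICB, with or without the VEGFA antibody, stood above the controls, and PARPi+aVEGF overlapped them. It rose by 0.54 ± 0.11 with PARPi+ICB (adjusted p = 0.00380) and by 0.41 ± 0.11 with the full combination (adjusted p = 0.0105), and its difference of 0.19 with PARPi+aVEGF did not pass (adjusted p = 0.233). The direct contrast of ICB added to PARPi+aVEGF gave 0.22 for Herpud1 and was not called, so the 2 groups were not shown to differ.

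Ddit3 (CHOP, chr10:127290774-127296288, plus strand), the transcription factor of the PERK branch that promotes cell death, was called in no comparison. It had 27.5, 30.0 and 26.5 CPM in controls and 28.3, 28.4 and 25.1 with PARPi, and its highest group was ICB alone with 35.0, 34.1 and 31.1. The 3 ICB libraries exceeded the 3 controls, but the log2 difference of 0.25 ± 0.08 did not pass in edgeR (adjusted p = 0.105), whereas DESeq2 called it (adjusted p = 0.0447). In the combinations the difference was 0.14 with PARPi+ICB (adjusted p = 0.253), 0.00 with PARPi+aVEGF (adjusted p = 0.994) and 0.14 with all agents (adjusted p = 0.180). Of its exon bases, 3.97% are shared with Mars on the opposite strand.

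Adding 1 agent to another was compared directly. ICB added to PARPi raised Dnajb9 by 0.57 ± 0.13 (adjusted p = 0.0315), the only member called there, where 0.882% of all genes were called higher and 1.26% in either direction. All PARPi+ICB libraries exceeded all PARPi libraries for 5 of the 10 genes (12.3% of all genes). Herpud1 stood at 0.45 (adjusted p = 0.0585), Manf at 0.39 (adjusted p = 0.102) and Creld2 at 0.50 (adjusted p = 0.107). The Dnajb9 call was lost without any 1 of the 3 PARPi libraries and without PARPi+ICB replicate 1 or 3. Without PARPi+ICB replicate 2, the lowest library of its group for most members, Herpud1 was called at 0.55 (adjusted p = 0.0342). That library also had a mean log2 CPM of 7.72 over cytosolic heat shock genes, against 5.34 to 5.93 in the others.

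The VEGFA antibody added to PARPi gave differences of 0.04 to 0.33, positive for all 10 genes and called for none (0.298% of all genes higher, 0.573% in either direction), with Dnajb9 highest at 0.33 (adjusted p = 0.191). The libraries with the antibody lay above all PARPi libraries for 5 of the 10 (7.51% of all genes). Added to PARPi+ICB, it gave -0.13 to 0.06, with none called (0% of all genes) and no member fully above (1.91% of all genes). ICB added to PARPi+aVEGF gave -0.09 to 0.22, with none called (0.0772% of all genes higher, 0.0882% in either direction) and no member fully above (3.04% of all genes). No interaction of ICB with PARPi, or of the VEGFA antibody with ICB in tumours given PARPi, passed for any of the 10 genes. In both tests 0 of all 18144 genes passed, so the absence is not particular to the members. The smallest adjusted p of a member was 0.691, for Dnajb9 in the second test. Dnajb9 had estimates of 0.43 ± 0.18 (SE) in the first test and -0.41 ± 0.17 in the second.

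Over all 6 groups, edgeR's test of any difference called 6 of the 10 genes (20.7% of all genes). They were Dnajb9 (adjusted p = 0.00329), Sdf2l1 (0.00556), Herpud1 (0.00704), Manf (0.00752), Creld2 (0.00953) and Hsp90b1 (0.0378). Ddit3 (0.0507), Pdia6 (0.0615), Pdia4 (0.148) and Hspa5 (0.391) were not called.

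Several genes rose relative to Hspa5. The ratio within a library does not depend on its total, and the 11 libraries of the combinations were set against the 3 controls with a two-sided exact permutation test over 364 arrangements, chosen after the values were seen. The test pools the 3 combinations and uses the same controls as the calls above, so it does not back them. Its p-values for the 9 other members are unadjusted, and ratios of other genes to Hspa5 were not tested. By this exact permutation test, the log2 ratio to Hspa5 was higher in the combinations by 0.49 for Creld2 and 0.41 for Manf (each p = 0.00275, the smallest this design can give), by 0.52 for Sdf2l1 (p = 0.00549) and by 0.43 for Dnajb9 and 0.33 for Hsp90b1 (each p = 0.0137). In the same exact permutation test it was 0.29 for Herpud1 (p = 0.0852), 0.15 for Pdia6 (p = 0.0742), 0.07 for Pdia4 (p = 0.368) and 0.02 for Ddit3 (p = 0.887). Without control replicate 1, whose Hspa5 level was the highest, Creld2 kept 0.45 and Manf 0.34 (each p = 0.0128, the smallest that 78 arrangements allow) and Sdf2l1 kept 0.40 (p = 0.0256), while Dnajb9 stood at 0.27 (p = 0.103) and Hsp90b1 at 0.19 (p = 0.128) in this exact permutation test.

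**Figure D3:**
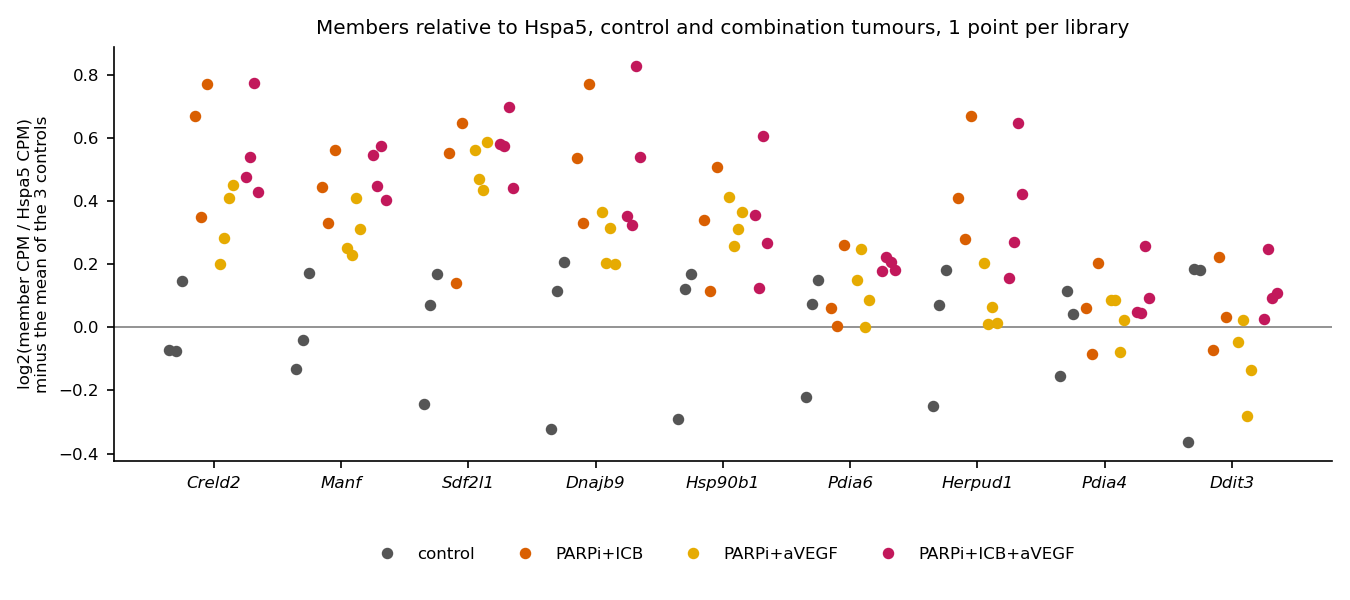
Log2 ratio of each gene to Hspa5 in the same library, minus the mean of the 3 controls (y axis), for the 3 controls and the 11 libraries of the olaparib combinations, with a point for each library. Creld2 and Manf show no overlap between controls and combinations, and Ddit3 and Pdia4 overlap.

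Most pairs of the members also varied together among tumours of the same group. With group means removed, the 45 pairs had a median r of 0.64 over the 20 libraries and ranged from -0.27 to 0.92, and the 36 pairs without Ddit3 ranged from 0.23 to 0.92. The closest pairs correlated at r = 0.92 for Creld2 and Manf, 0.91 for Dnajb9 and Herpud1, 0.82 for Pdia4 and Creld2 and 0.80 for Sdf2l1 and Creld2. Ddit3 had a median within-group r of -0.04 with the other 9, and Hspa5 one of 0.50. These values describe 20 libraries that share processing and cell mixture, and no test was made of them.

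Genes outside the list with the most similar pattern were ranked by Pearson r over the 20 libraries among 14422 genes. The mean z-score of the 10 members was closest to Dnajb11 (r = 0.97), an ER co-chaperone of BiP, followed by Serp1 (0.92), which guards nascent membrane proteins, Ccr9 (0.92), a chemokine receptor of lymphocytes, and Mbd1 (0.91). Further down came P2ry10 (0.91), Ero1b (older symbol Ero1lb, 0.90), an ER oxidase, and Blnk (0.90), an adaptor of B cell receptor signalling. Single members had close neighbours too: Prcp with Sdf2l1 (r = 0.95) and Hsp90b1 (0.94), Serp1 with Dnajb9 (0.93), Slc17a9 with Herpud1 (0.92) and Arf4 with Hspa5 (0.83). The nearest gene to Ddit3 was Ifitm1 (0.80).

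The rest of the pathway was read against the share of all genes called higher, 9.58% with PARPi+ICB, 9.99% with PARPi+aVEGF and 12.6% with all agents. In ER-associated degradation, 6, 4 and 7 of 11 genes were called higher in that order, and none lower. Derl3, a channel component of that machinery abundant in plasma cells, had 7.12 ± 1.51 CPM in controls (SD, n = 3), 31.3 ± 11.4 with PARPi+ICB, 24.3 ± 5.72 with PARPi+aVEGF and 31.6 ± 13.3 with all agents. It rose by 2.14 (adjusted p = 0.000696), 1.77 (adjusted p = 0.00199) and 2.15 (adjusted p = 0.000325), and was also called with ICB alone at 1.33 (adjusted p = 0.0492), the only gene of these lists called there. Edem1, which hands misfolded glycoproteins to degradation, rose by 0.90 with PARPi+ICB, and Sel1l and Syvn1, the core of the ubiquitin ligase, by 0.55 and 0.50. The median log2 change of the degradation list was 0.31, 0.17 and 0.32 in the 3 combinations.

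Of 8 sensors and transcription factors of the response, 2 were called higher and 1 lower with PARPi+ICB, and 1 each way with PARPi+aVEGF and with all agents. For PARPi+aVEGF and all agents, 1 of 8 called higher is near the share of all genes. Xbp1, the factor spliced by IRE1, averaged 206 ± 11.9 CPM in controls, 359 ± 40.9 with PARPi+ICB, 339 ± 42.5 with PARPi+aVEGF and 339.6 ± 76.2 with all agents. It rose by 0.80 (adjusted p = 0.00140), 0.71 (adjusted p = 0.00227) and 0.72 (adjusted p = 0.00132) in that order. Gene counts do not separate its spliced from its unspliced form. Mbtps1, the protease that cuts ATF6, was the member of the list called lower each time, by -0.23, -0.25 and -0.26. Atf4 was called with PARPi+ICB, at 0.23 (adjusted p = 0.0150).

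Of 17 other ER folding genes, 5, 4 and 7 were called higher in the 3 combinations, and 1 lower. Txndc5, a disulphide isomerase, rose by 0.73, 0.52 and 0.69, and Ero1b, the oxidase that feeds them, by 0.73, 0.70 and 0.85. Ero1a, an oxidase also driven by hypoxia, was the gene that fell, by 0.82 with all agents (adjusted p = 0.00920), and is named here after its value was seen. Of 16 genes of translocation and ER export, 3, 2 and 3 were called higher, 2 of 16 being near the share of all genes, led by the signal peptidase subunit Sec11c at 1.04, 0.82 and 0.98. Of 11 targets of the integrated stress response, 3, 1 and 3 were called higher, 1 of 11 being near that share, among them Cebpb at 1.22, 0.89 and 0.96, and Chac1, a glutathione-degrading enzyme downstream of ATF4, at 0.66 with PARPi+ICB and 0.65 with all agents. Of 9 cytosolic and mitochondrial heat shock genes, 3 (Hspa1a, Hspa1b and Hspb1) were called with PARPi+ICB and none with the others. Those calls rested on PARPi+ICB replicate 2, where Hspb1 had 108 CPM against 25.5 and 26.4 in the other libraries of the group, and none was left without it. Leaving out that library also took the calls among sensors and factors from 2 higher and 1 lower to 1 and 0, and those in translocation from 3 to 5. With PARPi alone no gene of the 6 lists was called.

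The members were then set against immunoglobulin RNA, the summed CPM of Ighm and Igkc, which took 0.496 to 4.76% of the counts of a library. The 3 controls had the lowest values, with a gap of 0.79 on the log2 scale to the next library, so the 20 libraries were not read as 1 cloud. Among the 17 treated tumours, Herpud1 followed immunoglobulin at Pearson r = 0.89 (permutation p = 2e-05) and Spearman rho = 0.87 (p = 3e-05), Dnajb9 at r = 0.86 (permutation p = 1e-05, the smallest that 100000 permutations can give) and rho = 0.87 (p = 5e-05), Creld2 at r = 0.78 (permutation p = 2e-04) and rho = 0.78 (p = 0.00044), and Manf at r = 0.78 (permutation p = 0.00021) and rho = 0.83 (p = 1e-04). Without the 2 libraries farthest from the median, PARPi+ICB replicate 3 and PARPi+ICB+aVEGF replicate 3, r was 0.79, 0.75, 0.68 and 0.76 for these 4 genes. Hsp90b1 (0.58), Pdia4 (0.56) and Sdf2l1 (0.49) had lower r, which dropped to 0.36, 0.34 and 0.34 without those libraries. Hspa5, Pdia6 and Ddit3 had 0.38, 0.38 and 0.29. Without those libraries their r was 0.49, 0.23 and 0.45, so it rose for Hspa5 and Ddit3. Their Spearman rho over the 17 was 0.55 (permutation p = 0.0241), 0.45 (p = 0.0683) and 0.27 (p = 0.287). These are 10 relations with unadjusted p, and they hold differences between groups as well as within them. The share of all genes with such r among the 17 was not computed. Over the 20 libraries, controls included, 6.69% of 17940 genes had r of at least 0.7. Among the members, Hsp90b1, Dnajb9, Sdf2l1, Creld2, Manf and Herpud1 reached that value over the 20.

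**Figure D4:**
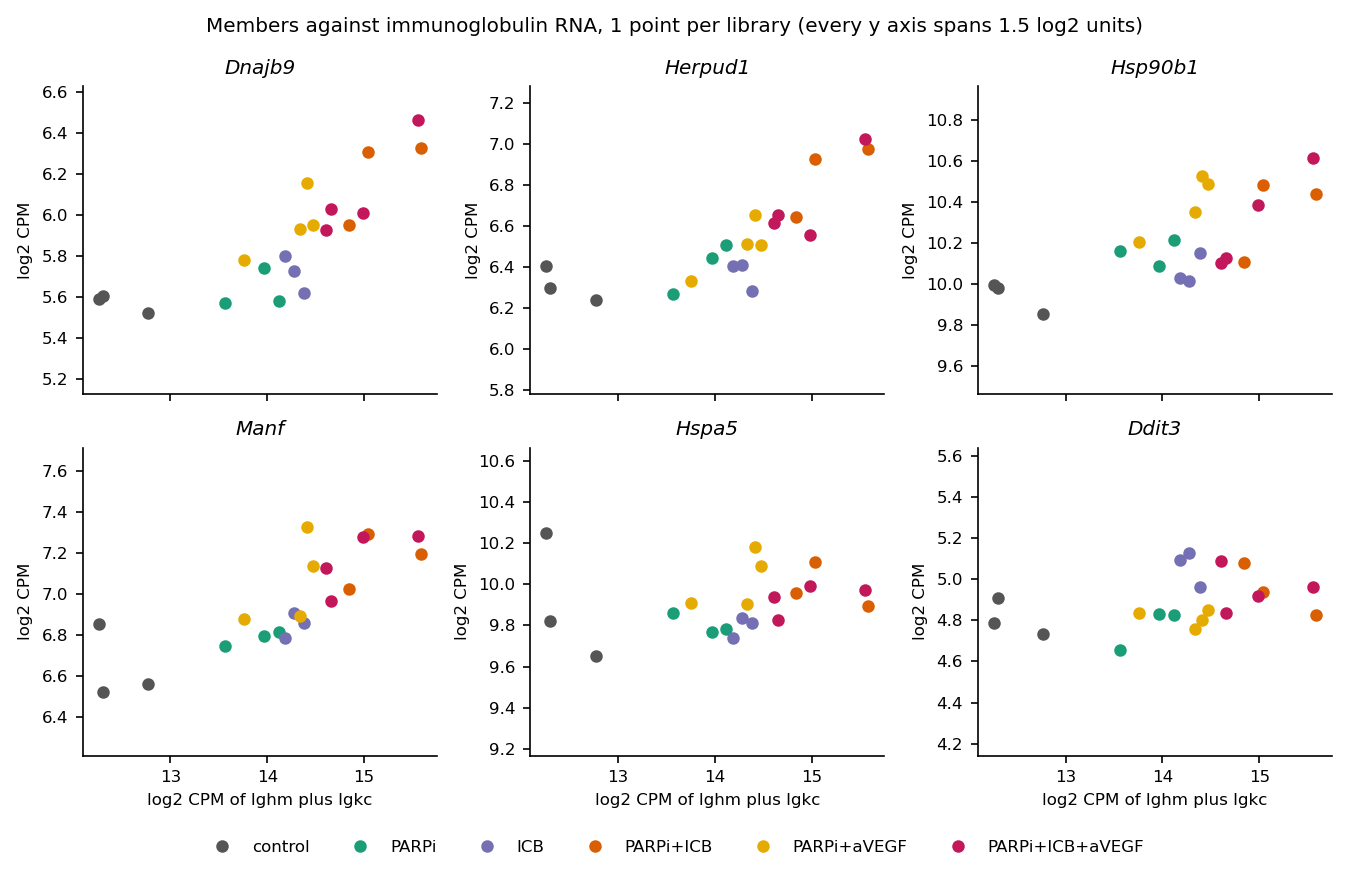
Log2 CPM of 6 of the genes (y axis, each spanning 1.5 log2 units) against log2 CPM of Ighm plus Igkc (x axis) in the 20 libraries, coloured by treatment group. The controls form the left edge of every panel. Among treated tumours Herpud1 and Dnajb9 climb with immunoglobulin (r = 0.89 and 0.86), and Ddit3 has a weaker relation (r = 0.29).

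Within groups the relation was weaker for every member but Hsp90b1, whose r was 0.70 against 0.58 among the 17 treated tumours. With group means removed, r was 0.70 for Hsp90b1 (permutation within groups, p = 0.0128; rho = 0.61, p = 0.0237), 0.69 for Herpud1 (p = 0.0146; rho = 0.61, p = 0.0247) and 0.67 for Dnajb9 (p = 0.0205; rho = 0.54, p = 0.0467). These values dropped to 0.53, 0.49 and 0.46 without PARPi+ICB+aVEGF replicate 3 and PARPi+aVEGF replicate 2, the libraries farthest from their group means. The other 7 genes lay between -0.23 (Ddit3) and 0.49 (Creld2). A within-group r of at least 0.6 was reached by 3 of the 10 members and by 4.41% of 17940 genes.

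In edgeR's fit of a slope on log2 immunoglobulin with a coefficient per group, no member was called (0.739% of all genes higher, 0.821% either way). A doubling of immunoglobulin went with 26.3% more Hsp90b1 (adjusted p = 0.0983), 26.3% more Dnajb9 (adjusted p = 0.114) and 24.1% more Herpud1 (adjusted p = 0.101), and the slopes of Hspa5 and Ddit3 were -2.66% and -4.60%. Without control replicate 3, Hsp90b1 and Herpud1 were called. Genes of the wider pathway were called in this slope, with log2 slopes of 1.20 for Derl3 (adjusted p = 0.00447), 0.74 for Sec11c (adjusted p = 0.00625), 0.68 for Ero1b (adjusted p = 0.00752) and 0.44 for Xbp1 (adjusted p = 0.0406).

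When log2 immunoglobulin entered the comparison of groups as a covariate, no member was called in any comparison, and the estimate for Hsp90b1 with PARPi+ICB turned from 0.41 to -0.51. Controls and treated tumours share no range of immunoglobulin, so in this fit treatment and immunoglobulin cannot be told apart. With the library quality RNAs as covariate, PARPi+ICB kept 2 of its 6 calls (Dnajb9 and Herpud1), PARPi+aVEGF kept none, and all agents kept 4 of 7 (Dnajb9, Sdf2l1, Manf and Herpud1). The share of all genes called in that fit is not given here, so the counts are not read as results about the members. Controls shared no range of these RNAs with PARPi+ICB or PARPi+aVEGF, so there treatment and library quality cannot be told apart. With all agents, replicate 4 alone reached the control range (mean log2 CPM 4.63, against 4.47 to 4.82).

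The immunoglobulin genes themselves did not follow the same pattern across treatments. Ighm rose with ICB by 2.47 (adjusted p = 0.00958) and with ICB added to PARPi by 3.74 (adjusted p = 0.00106), and stood at 0.02 with PARPi and 0.85 with PARPi+aVEGF (adjusted p = 0.125). Igkc rose by 1.63 with ICB (adjusted p = 0.0231) and by 1.95 with PARPi+aVEGF, and stood at 1.63 with PARPi (adjusted p = 0.0816). ICB alone thus had 19939 CPM of immunoglobulin and no member called (2.2% of all genes). PARPi+aVEGF had 19742 CPM and 6 called (17.8% of all genes), which fell to 1 without control replicate 3. The groups had 3 and 4 libraries. All treated libraries stood above all controls for 4 members with ICB (11.7% of all genes) and 5 with PARPi+aVEGF (14.2% of all genes). Whether members respond differently in these 2 groups was not tested.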

How the data were processed

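RNA of 20 tumours was sequenced as stranded whole-transcriptome libraries. Per the submitters' processing notes, reads were processed with STAR and HTSeq on GRCm38; versions and the strand setting are not given in the sources used here. The deposited count table holds whole-number counts per Ensembl gene, not normalized. The deposited log2 values are the authors' log2(RPKM + 1). Checked against the counts, RPKM equalled the count scaled by a library factor and a gene length that lay within 2% of the whole gene span for 99.3% of 12382 genes, so RPKM was not used to compare levels between genes.

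Symbols and positions came from GENCODE M21, where 55141 identifiers matched. Counts were tested in R 4.3.3 with edgeR 4.0.16: filterByExpr (minimum count 10, minimum total 15), TMM, a coefficient per group and quasi-likelihood F tests with Benjamini-Hochberg adjustment over 18144 genes. CPM use effective library sizes, and log2 CPM a prior count of 2. The SE is derived from F. Correlations used 100000 permutations. No batch is given in the labels. The scripts were checked on simulated counts. Replicates of a group differed by more than counting noise in all 24 pairs (chi-square per degree of freedom 20.0 to 144).

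The members, the pathway and marker lists and the tests were chosen with earlier results of these data known. The text names all 10 members, up to 4 called genes of each list by smallest p within a comparison (Ero1a aside) and the genes most like the members by r. Promoter sequences are from RefSeq on GRCm38.p6. DESeq2 1.42.0, limma 3.58.1, other filters and scalings, covariates, a replicate block and leaving out each library were run as alternatives.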

Additional observations from a re-analysis of the deposited data

Results flagged for a closer look

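In groups of 4 libraries, the highest or lowest value was compared with the rest by Dixon's criterion, which by chance picks about 1 in 20 groups, and 2 of 22 were picked. Dnajb9 in PARPi+ICB+aVEGF replicate 3 had 88.1 CPM, against 60.7 to 65.1 in the other libraries of the group. Pdia6 in PARPi+ICB+aVEGF replicate 4 had 264.9 CPM, against 295.8 to 299.1 in the others.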

How the results depend on the processing

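The 3 counts of called members were within 1.5 times of the reported ones under every scaling, filter and test that was run, and moved with covariates and single libraries. With immunoglobulin as covariate 0 members were called with PARPi+ICB, PARPi+aVEGF, all agents, ICB added to PARPi and over the 6 groups, and 13 of the 19 called increases against control turned negative. They were, with PARPi+ICB, Hsp90b1 -0.51, Herpud1 -0.31, Dnajb9 -0.28, Creld2 -0.13, Sdf2l1 -0.056 and Manf -0.01; with PARPi+aVEGF, Dnajb9 -0.22, Hsp90b1 -0.16 and Creld2 -0.092; and with all agents, Hsp90b1 -0.49, Herpud1 -0.38, Dnajb9 -0.31 and Creld2 -0.18. Estimates that had not been called turned negative too, for 6 members with PARPi, 7 with ICB, 1 with PARPi+ICB (Pdia4), 2 with PARPi+aVEGF (Pdia4 and Herpud1, the latter from 0.19 to -0.38) and 1 with all agents (Pdia4). Over all genes the calls in that fit dropped from 2922 to 0 with PARPi+ICB, from 3228 to 5 with PARPi+aVEGF and from 4384 to 0 with all agents. With library quality RNAs as covariate 2, 0 and 4 members were called in the 3 combinations and 0 with ICB added to PARPi. Controls shared no range of these RNAs with PARPi+ICB or PARPi+aVEGF. Leaving out 1 library gave 5 to 7 members with PARPi+ICB, 1 to 6 with PARPi+aVEGF (2 without control replicate 2, and Sdf2l1 alone without control replicate 3), 5 to 7 with all agents, 0 to 2 with ICB added to PARPi, 5 to 8 over the 6 groups and 0 to 2 for the slope on immunoglobulin. The single call with ICB added to PARPi became 2 with no filter or with immunoglobulin genes kept out of library sizes, 4 with DESeq2, and 0 with limma or with the compared groups fitted alone. DESeq2 called 1 member with ICB (Ddit3) and 3 in the slope, which had 2 with Igkc alone or with all constant-region genes as the measure and 7 without group coefficients. Without group coefficients the slope also takes in the gap between controls and treated tumours. For these alternatives the share of all genes called is not given here, so the counts are not read as results about the members. Causes were not tested. Without the acinar libraries 4 members were called with PARPi+aVEGF and 5 over the 6 groups.

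Replicate numbers recur across groups. Same-number pairs had a median correlation of 0.027 in their deviations from group means, over 0.1 in 10 of 46 pairs, against -0.013 for different numbers, over 0.1 in 26 of 120, so the numbers were not taken as pairs. With a replicate block 6, 6 and 7 members were called in the 3 combinations, 1 with ICB added to PARPi, 7 over the 6 groups and 0 in the slope. The share of all genes called in that fit is not given here.

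With 3 or 4 mice a group the 95% intervals for Hspa5 in the combinations still spanned -0.22 to 0.32 on the log2 scale. The strand setting is not known, and Hsp90b1, Manf and Ddit3 share exon bases with opposite-strand genes.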
